A study of Homo sapiens with 6 samples.

Results

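The lysyl oxidases LOX, LOXL1, LOXL2, LOXL3 and LOXL4 and the small leucine-rich proteoglycans LUM, DCN, BGN and PRELP were examined by RNA-seq in Huh7 cells, an established line from a human hepatocellular carcinoma. These 9 of the 79172 gene names in the counts table were chosen by name, with their measured values in this contrast already known, so the contrast is given for them as a description and no test of it is read as evidence. The study compared 3 libraries of control Huh7 cells, labelled Control, with 3 libraries of Huh7 cells labelled Overexpressing HK1, which carry raised expression of the hexokinase 1 gene. The sources used here do not give the means of raising HK1 or the handling of the control cells. The labels do not say that the 3 libraries of a group came from separate cultures, so the spread between them may be technical.

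Lysyl oxidases are secreted copper-dependent enzymes that oxidize lysine residues of collagen and elastin, the first step in cross-linking these fibres. Small leucine-rich proteoglycans have a protein core of leucine-rich repeats that binds collagen fibrils, with chondroitin, dermatan or keratan sulfate chains attached to most of them. In liver both families are known mainly from fibrosis, where stellate cells and fibroblasts make much of the fibrous matrix.

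The family resemblance of the oxidases lies in the catalytic domain, and it is shown by the 33 coding bases that end in 3 histidine codons of the copper-binding site, in capitals. The sequences are from GENCODE release 29 transcripts on GRCh38, all 5′ to 3′ on the coding strand. The LOX stretch lies at chr5:122074160-122075426 (minus strand) across exons 3 and 4, with the intron left out. The others are given because they show how far the members differ at the same site, with 28 of 33 bases of LOXL1, 24 of LOXL3 and 23 of LOXL4 the same as in LOX.
LOX: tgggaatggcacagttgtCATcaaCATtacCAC
LOXL1: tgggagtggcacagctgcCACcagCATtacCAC
LOXL3: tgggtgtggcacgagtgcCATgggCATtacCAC
LOXL4: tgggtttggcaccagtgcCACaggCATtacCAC

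For the proteoglycans the shared element is the leucine-rich repeat, shown by the first stretch in each coding sequence that encodes its leucine and asparagine pattern, with the codons of the pattern in capitals. The LUM stretch is at chr12:91108674-91108706 (minus strand) in exon 2, and 15 of 33 bases of DCN, 17 of BGN and 19 of PRELP were the same as in LUM. The stretches begin at residue 92 in LUM, 131 in DCN, 279 in BGN and 197 in PRELP, so they need not be the same repeat. The shared bases therefore do not measure how far the genes differ. These 4 genes are set side by side because LUM alone of them was expressed above the low-count filter.
LUM: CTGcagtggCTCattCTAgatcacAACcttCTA
DCN: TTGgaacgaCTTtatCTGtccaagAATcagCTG
BGN: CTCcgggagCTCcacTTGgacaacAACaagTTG
PRELP: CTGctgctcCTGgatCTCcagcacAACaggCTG

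The label was checked first on HK1 itself, which had 13, 15 and 13 counts in control replicates 1 to 3 and 9723, 10602 and 11101 in HK1-overexpressing replicates 1 to 3. Library totals ran from 16771835 to 20823072 counts. Levels are given as CPM, the usual library-size-scaled counts with TMM-adjusted totals, or as RPKM, the same per kilobase of exon, for comparing genes with each other. A gene was called at an adjusted p below 0.05 in edgeR's quasi-likelihood test with Benjamini-Hochberg adjustment over 16734 tested genes. By that rule 1342 genes were called, 8.02% of those tested, with 648 higher (3.87%) and 694 lower (4.15%) in HK1-overexpressing cells. With library totals as the only scaling the split was 907 higher and 462 lower. The groups did not overlap for 27.8% of tested genes.

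The lists of cell type markers bear on which cells these libraries hold. All 11 hepatocyte markers were detected at a mean of at least 1 CPM, and 6 of the 11 tested were called lower, beside 4.15% of all tested genes. Their summed level was 16045 to 16784 CPM in control and 12696 to 13037 CPM in HK1-overexpressing libraries. Of 12 fibroblast and stellate cell markers 4 were detected, FAP, PDPN and POSTN had a count of 0 in all 6 libraries, and the sum was 23.8 to 25.5 CPM against 27.2 to 29.3 CPM. COL1A2 was the 1 called gene of the 5 tested in this list, beside 8.02% of all tested genes, with means of 11.9 and 17.8 CPM. The other detected markers of this list, COL3A1 (2.53 and 1.81 CPM), PDGFRA (5.80 and 4.60 CPM) and RGS5 (3.05 and 2.97 CPM), had lower means in HK1-overexpressing cells. The remaining tested marker had a mean below 1 CPM, and its direction is not given here. Of the 5 tested, 4 had an unadjusted p below 0.05 in edgeR, and the median log2 fold change was -0.03. Among 6 endothelial markers only PECAM1 was detected, CDH5, KDR, TEK and ERG were at 0, and the sum was 4.02 to 6.25 CPM against 4.53 to 5.40 CPM. Of 6 leukocyte markers only LYZ was detected, it was called lower, CD163 was at 0, and the sum was 61.1 to 71.1 CPM against 43.4 to 48.4 CPM. The part of these sums in the results on the matrix genes was not tested. In bulk libraries fewer cells of a type and less RNA per cell cannot be told apart.

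Of the 9 genes, 4 passed the low-count filter, LUM, LOX, LOXL2 and LOXL4. Of these 4, LUM and LOXL2 were called higher and LOX lower in HK1-overexpressing cells. That is 2 higher and 1 lower of 4, beside 3.87% and 4.15% of all tested genes. Because earlier values of this contrast chose the genes, these calls only describe them, and nothing is read from the count. LOX, at 24.4 CPM in control cells, was the least abundant gene inside the filter, and LOXL3, at 0.647 CPM, the most abundant outside it.

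LUM encodes lumican, a keratan sulfate proteoglycan that binds collagen fibrils and helps set their spacing. It lies at chr12:91102629-91111494 on hg38 (minus strand), and no exon of another gene overlapped its 2671 exon bases. Its level was 110.06, 102.59 and 113.36 CPM in control replicates 1 to 3 and 183.11, 177.07 and 176.14 CPM in HK1-overexpressing replicates 1 to 3. Every HK1-overexpressing library was above every control library. The means were 109 ± 5.52 CPM and 179 ± 3.79 CPM (SD, n = 3 each), a log2 fold change of 0.72 (SE 0.0531), or 1.65-fold. Per exon length LUM was the most abundant of the 9 genes, at 40.7 ± 2.07 RPKM in control and 66.9 ± 1.42 RPKM in HK1-overexpressing cells, and 93.2% of tested genes lay below its control level.

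The other 3 proteoglycans had almost no counts. DCN, which encodes decorin, a chondroitin or dermatan sulfate proteoglycan that binds collagen and TGF-beta, had 0 counts in each control library and 1, 1 and 0 in the HK1-overexpressing libraries. BGN, which encodes biglycan, had 0 counts in 5 libraries and 2 in HK1-overexpressing replicate 2. PRELP, which encodes prolargin, a heparin-binding member, had 1 count in control replicate 2, 1 in HK1-overexpressing replicate 3, and 0 in the others. A count of 0 allows a level of up to 0.144 to 0.179 CPM in these libraries, counting error only. At this depth no difference was detectable for DCN, BGN or PRELP. DCN is the neighbour of LUM, at chr12:91140484-91183217 on the same strand.

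**Figure D1:**
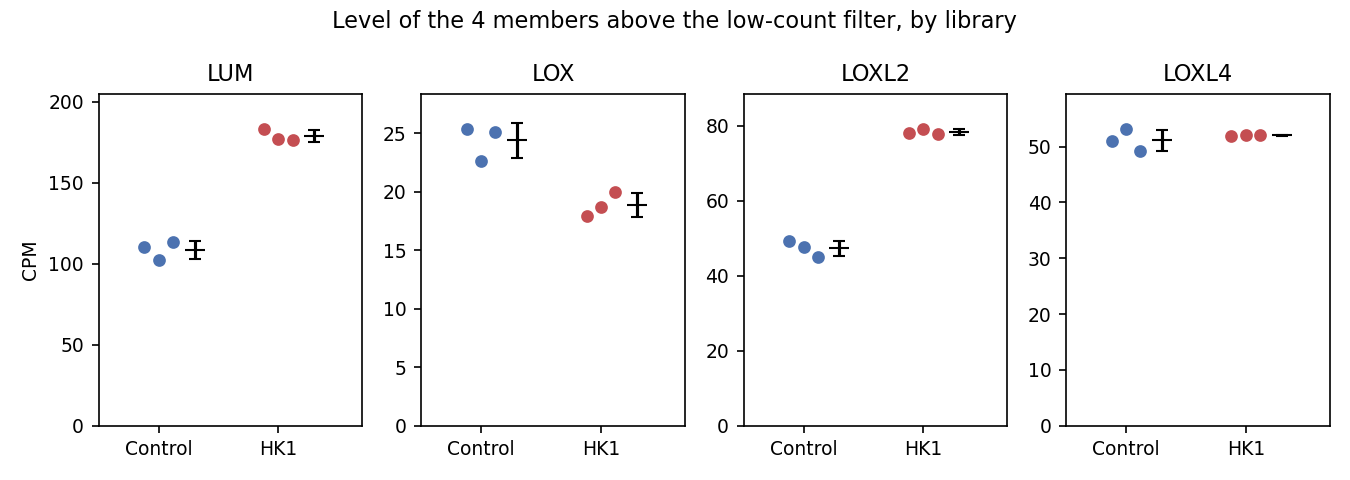
Level in CPM (linear axis from 0) of LUM, LOX, LOXL2 and LOXL4 in each library, with points for control (blue) and HK1-overexpressing (red) replicates 1 to 3 and bars for the mean ± SD. LUM and LOXL2 are higher and LOX lower in all 3 HK1-overexpressing libraries than in any control library, and the LOXL4 groups overlap.

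Of the oxidases, LOX is the founding member, made as a proenzyme that BMP1 cleaves. Its level was 25.34, 22.64 and 25.12 CPM in control replicates 1 to 3 and 17.88, 18.66 and 19.94 CPM in HK1-overexpressing replicates 1 to 3. All 3 HK1-overexpressing libraries were below the lowest control library. The means were 24.4 ± 1.5 CPM and 18.8 ± 1.04 CPM (SD, n = 3 each), a log2 fold change of -0.37 (SE 0.0785), or 0.773-fold. The call of LOX was lost when control replicate 3 (log2 fold change -0.35) or either of HK1-overexpressing replicates 1 (-0.33) and 2 (-0.37) was left out, with the direction kept. LOX lies at chr5:122063195-122078413 on hg38 (minus strand), and exons of SRFBP1 overlap 2.47% of its exon bases.

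LOXL2, an oxidase with scavenger receptor domains that is known for cross-linking collagen IV as well as fibrillar collagen, went the other way. It measured 49.17, 47.63 and 45.09 CPM in control replicates 1 to 3 and 77.98, 79.06 and 77.72 CPM in HK1-overexpressing replicates 1 to 3. The HK1-overexpressing libraries lay within a narrow range, well above all control libraries. The means were 47.3 ± 2.06 CPM and 78.3 ± 0.710 CPM (SD, n = 3 each), a log2 fold change of 0.73 (SE 0.0578), or 1.65-fold. Exons of other genes cover 4.98% of the LOXL2 exon bases, and 1.42% of its 50-base words occur in other genes, so a small part of its reads could be miscounted. One overlapping gene, LOXL2-AS1 on the opposite strand, had 2 to 12 counts per control library and 3 to 6 per HK1-overexpressing library. The other, ENTPD4, is on the same strand, and had 986 to 1325 counts per control library and 1223 to 1325 per HK1-overexpressing library.

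LOXL4, the last of the abundant oxidases and also a scavenger receptor domain protein, had groups that could not be separated. It measured 50.93, 53.14 and 49.22 CPM in control replicates 1 to 3 and 51.84, 52.03 and 52.15 CPM in HK1-overexpressing replicates 1 to 3. The control values lay on both sides of the HK1-overexpressing values, so the groups overlapped. The means were 51.1 ± 1.97 CPM and 52.0 ± 0.157 CPM (SD, n = 3 each), a log2 fold change of 0.03 (SE 0.0587). LOXL4 lies at chr10:98247690-98268194 on hg38 (minus strand), and exons of an unnamed gene overlap 4.23% of its exon bases.

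LOXL3 and LOXL1 were scarce. LOXL3, an oxidase needed for palate and cartilage development, had 15, 13 and 7 counts in control replicates 1 to 3 and 9, 10 and 10 in HK1-overexpressing replicates 1 to 3, and the groups overlapped. It lies at chr2:74532258-74555690 on hg38 (minus strand). Exons of HTRA2 and DOK1, on the opposite strand, overlap 25.5% of the LOXL3 exon bases, and fragments there may be missing from its counts. With no strand set in the counting, fragments of those genes could also be added to LOXL3, so its level is uncertain. LOXL1, the oxidase most tied to elastic fibres, had 1, 2 and 0 counts in control replicates 1 to 3 and 1, 3 and 1 in HK1-overexpressing replicates 1 to 3.

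Set side by side per exon length, the family's order in control cells was LOXL4 at 14.2 ± 0.547 RPKM, LOXL2 at 7.90 ± 0.344 RPKM, LOX at 4.35 ± 0.268 RPKM, LOXL3 at 0.143 ± 0.0426 RPKM and LOXL1 at 0.0154 ± 0.0162 RPKM. No neighbours in that order overlapped between libraries. In HK1-overexpressing cells the order was the same, with LOXL4 at 14.5 ± 0.0438 RPKM and LOXL2 at 13.1 ± 0.119 RPKM closer together. LOXL2 was 0.539 to 0.580 times LOXL4 in control libraries and 0.896 to 0.913 times LOXL4 in HK1-overexpressing libraries. The ratio of LOXL2 to LOX was 1.68 to 1.97 in control libraries and 3.64 to 4.08 in HK1-overexpressing libraries. The share of LOXL2 in the summed RPKM of the 5 oxidases was 29.7% ± 0.588 in control and 42.1% ± 0.413 in HK1-overexpressing cells, and that of LOX was 16.4% ± 1.24 and 10.8% ± 0.535. The sum itself was 26.6 ± 0.713 RPKM and 31.0 ± 0.237 RPKM.

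**Figure D2:**
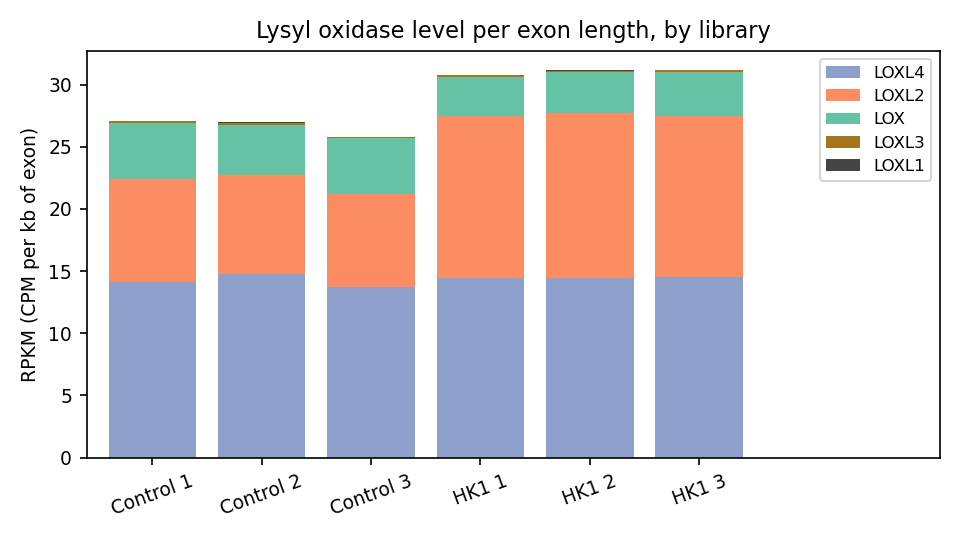
Stacked RPKM (CPM per kilobase of exon, linear axis from 0) of the 5 lysyl oxidases in each of the 6 libraries. The LOXL4 block keeps its height, the LOXL2 block is taller and the LOX block shorter in the HK1-overexpressing libraries, and LOXL3 and LOXL1 are barely visible.

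The replicates of the HK1-overexpressing group were closer to each other than those of the control group for all 4 tested genes. The coefficient of variation was 5.08% in control and 2.12% in HK1-overexpressing cells for LUM, 4.36% and 0.907% for LOXL2, 3.85% and 0.303% for LOXL4, and 6.16% and 5.52% for LOX. With 3 libraries per group these spreads are uncertain, and the pattern is not particular to these genes. COL5A2, for example, had 14.7% and 1.18%, while COL1A2 went the other way with 5.58% and 8.01%. Over the 6 libraries the Pearson r of log2 CPM was 0.981 between LUM and LOXL2 and -0.936 between LOX and LOXL2. These points fall in 2 groups of 3 libraries, so the values restate the group difference and carry no p. The genes whose levels tracked LUM most closely, of 10934 tested genes with a mean of at least 5 CPM, were SERPINE2 (r = 0.9996), CREB3L3 (r = 0.9987) and LRRN1 (r = 0.9984). For LOXL2, the oxidase of highest mean CPM over all 6 libraries, though below LOXL4 in control cells, they were SPHK1 (r = 0.998), MYOF (r = 0.996) and IGFBP1 (r = 0.996). All 6 of these genes had a higher mean in HK1-overexpressing cells, which follows from choosing them by r with LUM or LOXL2. SERPINE2, a secreted serine protease inhibitor, for example had 248 CPM in control and 349.6 CPM in HK1-overexpressing cells.

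Start-site sequences were matched by symbol in the RefSeq promoter table (GRCh38.p14, 250 bases before to 50 after each start) for 6 of the 9 genes, and those of LUM, LOXL2 and DCN were not used here. LOX and LOXL4 are shown because the groups did not overlap for LOX and did for LOXL4. Searched on both strands, ACGTG, a form of the core letters bound by hypoxia-inducible factors, occurs 4 times at the outermost LOX start, chr5:122078210-122078509 (minus strand), in capitals. At least 1 match is found in 21.4% of 35116 promoters and at least 4 in 0.843%. The windows of the other LOX starts overlap each other and hold the same 1 match, and LOXL4, LOXL1, LOXL3, BGN and PRELP hold 0. These counts are for ACGTG only, and the form GCGTG was not searched. The LOXL4 start, chr10:98268145-98268444 (minus strand), is 85.3% G and C, more than 99.8% of the promoters, against 58.0% for LOX. TATAAA is found in 11.5% of the promoters and in none shown here. A match describes these letters only and is not a shown binding site.
LOX: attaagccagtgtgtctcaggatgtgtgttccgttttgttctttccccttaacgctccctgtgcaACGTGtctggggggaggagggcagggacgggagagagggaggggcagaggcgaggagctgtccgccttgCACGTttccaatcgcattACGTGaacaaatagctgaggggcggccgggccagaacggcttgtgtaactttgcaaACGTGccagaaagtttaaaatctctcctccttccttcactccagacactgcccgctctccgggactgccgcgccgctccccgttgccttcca
LOXL4: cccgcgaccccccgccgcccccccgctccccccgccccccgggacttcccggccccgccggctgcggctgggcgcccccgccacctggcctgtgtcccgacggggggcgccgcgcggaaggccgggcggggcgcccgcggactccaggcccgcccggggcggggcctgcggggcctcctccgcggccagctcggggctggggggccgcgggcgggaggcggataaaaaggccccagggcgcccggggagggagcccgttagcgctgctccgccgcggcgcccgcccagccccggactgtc

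The oxidases and proteoglycans act with other matrix genes, which were read from 10 lists of 137 genes. Of the 99 tested, 12 were called, 6 higher and 6 lower, or 12.1% beside 8.02% of all tested genes. Their median log2 fold change was -0.03, against 0.01 over all tested genes. The lists were written with earlier results of these data known.

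Among 13 other small leucine-rich proteoglycans 4 were tested, with a median log2 fold change of 0.02, and 1 rose and 1 fell, or 2 of 4, beside 8.02% of all tested genes. FMOD, which encodes fibromodulin, another collagen-binding keratan sulfate proteoglycan, rose from 1.16 ± 0.109 to 2.65 ± 0.0369 CPM (log2 fold change 1.19, SE 0.192, edgeR adjusted p = 0.00134), on 17 to 24 and 52 to 56 counts per library. TSKU, which encodes tsukushi, fell from 106 ± 5.08 to 90.6 ± 2.71 CPM (log2 fold change -0.23, edgeR adjusted p = 0.0205). That call was lost with library totals as the only scaling (adjusted p = 0.0521) and without any 1 of the HK1-overexpressing libraries (adjusted p = 0.0728 to 0.128). The other 9 listed, among them KERA, ASPN and OGN, were below the filter.

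The substrates of the oxidases were read from lists of fibrillar collagens and elastic fibre genes. Of 11 fibrillar collagen genes 7 were tested, with a median log2 fold change of -0.14, and 1 rose and 1 fell, 28.6% of those tested beside 8.02% of all genes. COL1A2, a chain of type I collagen, rose from 11.9 ± 0.664 to 17.8 ± 1.43 CPM (log2 fold change 0.58, edgeR adjusted p = 0.00100), while its partner chain COL1A1 had 12 counts over the control and 10 over the HK1-overexpressing libraries. COL2A1, the chain of cartilage collagen, fell from 2.92 ± 0.304 to 1.31 ± 0.179 CPM (log2 fold change -1.16, edgeR adjusted p = 0.00180). Of 18 elastic fibre genes 12 were tested, with a median of -0.05, and 1 was called (8.33%), or 3 without control replicate 1. LTBP3, which binds latent TGF-beta to the matrix, fell from 46.5 ± 0.434 to 36.2 ± 1.01 CPM (log2 fold change -0.36, edgeR adjusted p = 0.00185), and the other 11 tested were not called, FBLN1 for example with a mean of 263 and 236 CPM.

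Next came the enzymes and helpers around the oxidases. Of 17 tested genes of collagen modification and folding (18 listed, median log2 fold change -0.04) 1 was called, 5.88% beside 8.02% of all tested genes. That count was 5 without control replicate 1, 0 without HK1-overexpressing replicate 1, 2 with a replicate block and 3 with no filter. FKBP10, a collagen chaperone, fell from 68.2 ± 4.13 to 54.8 ± 2.82 CPM (log2 fold change -0.31, edgeR adjusted p = 0.00792), a call lost without HK1-overexpressing replicate 1 (adjusted p = 0.0783). None of the 4 tested proteases of procollagen and prolysyl oxidase (8 listed, median 0.01) was called with all libraries in edgeR, DESeq2 or limma-voom, and 0 of the 4 had an unadjusted p below 0.05. BMP1, which cleaves proLOX, measured 34.6 and 37.5 CPM and was called in edgeR without control replicate 2 (log2 fold change 0.20, adjusted p = 0.0450). All 7 copper delivery genes were tested, with a median of -0.03 and 1 called (14.3%). ATP7B, a copper transporter of hepatocytes, fell from 30.7 ± 3.81 to 24.0 ± 0.652 CPM (log2 fold change -0.35, edgeR adjusted p = 0.0214), a call lost without control replicate 3 or without any 1 HK1-overexpressing library (adjusted p = 0.0770 to 0.116). SLC31A1, the copper importer, measured 148 and 143 CPM.

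The sugar chains of the proteoglycans are built by another set of enzymes. None of 19 tested genes of chondroitin and dermatan sulfate synthesis (23 listed, median log2 fold change -0.01) was called in edgeR as fitted to all libraries with the filter and TMM, in DESeq2 or in limma-voom, and 8 of the 19 had an unadjusted p below 0.05. In edgeR 1 was called with library totals only, 1 with a mean CPM of at least 5, 2 with no filter, and 1 without any 1 of the control libraries. Of 4 tested genes of keratan sulfate synthesis (9 listed, median 0.22) 1 was called (25.0%), or 2 without control replicate 1 or 2. Of the untested genes, CHST1 and CHST5 had a count of 0 in every library, and CHST2, CHST4 and CHST6 had at most 8 counts in any library. B4GALT1, a galactosyltransferase, rose from 113 ± 6.16 to 132 ± 4.08 CPM (log2 fold change 0.22, edgeR adjusted p = 0.0238). That call was lost without any 1 HK1-overexpressing library (adjusted p = 0.0727 to 0.172) and with a replicate block (adjusted p = 0.0503). B4GALT4 of the same list measured 66.4 and 73.1 CPM and was not called.

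Of 14 tested ligands and receptors (15 listed, median 0.04) 1 was called, 7.14% beside 8.02% of all tested genes. That count was 2 in DESeq2, in limma-voom, without robust dispersion, with a replicate block and without control replicate 2 or 3, 3 with no filter, and 4 without control replicate 1. The called gene was TLR4, a receptor that biglycan and decorin can bind, which rose from 4.42 ± 0.415 to 7.49 ± 0.420 CPM (log2 fold change 0.76, edgeR adjusted p = 0.00114). Of 11 tested other secreted proteoglycans and matricellular genes (15 listed, median -0.08), 2 rose and 1 fell (27.3%), with 5 called without control replicate 2 and 1 without HK1-overexpressing replicate 1 or 3. SPP1, which encodes osteopontin, rose from 198 ± 14.0 to 255 ± 6.03 CPM (log2 fold change 0.36, edgeR adjusted p = 0.000924). VCAN, which encodes versican, a large chondroitin sulfate proteoglycan, rose from 94.3 ± 11.2 to 120 ± 4.30 CPM (log2 fold change 0.35, edgeR adjusted p = 0.0118), a call lost without control replicate 3 or HK1-overexpressing replicates 1 or 3 (adjusted p = 0.0574 to 0.0778). FN1, fibronectin, fell from 8571 ± 611 to 7364 ± 179 CPM (log2 fold change -0.22, edgeR adjusted p = 0.0167), a call that did not hold when control replicate 3 or 1 HK1-overexpressing library was left out (adjusted p = 0.0588 to 0.127).

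**Figure D3:**
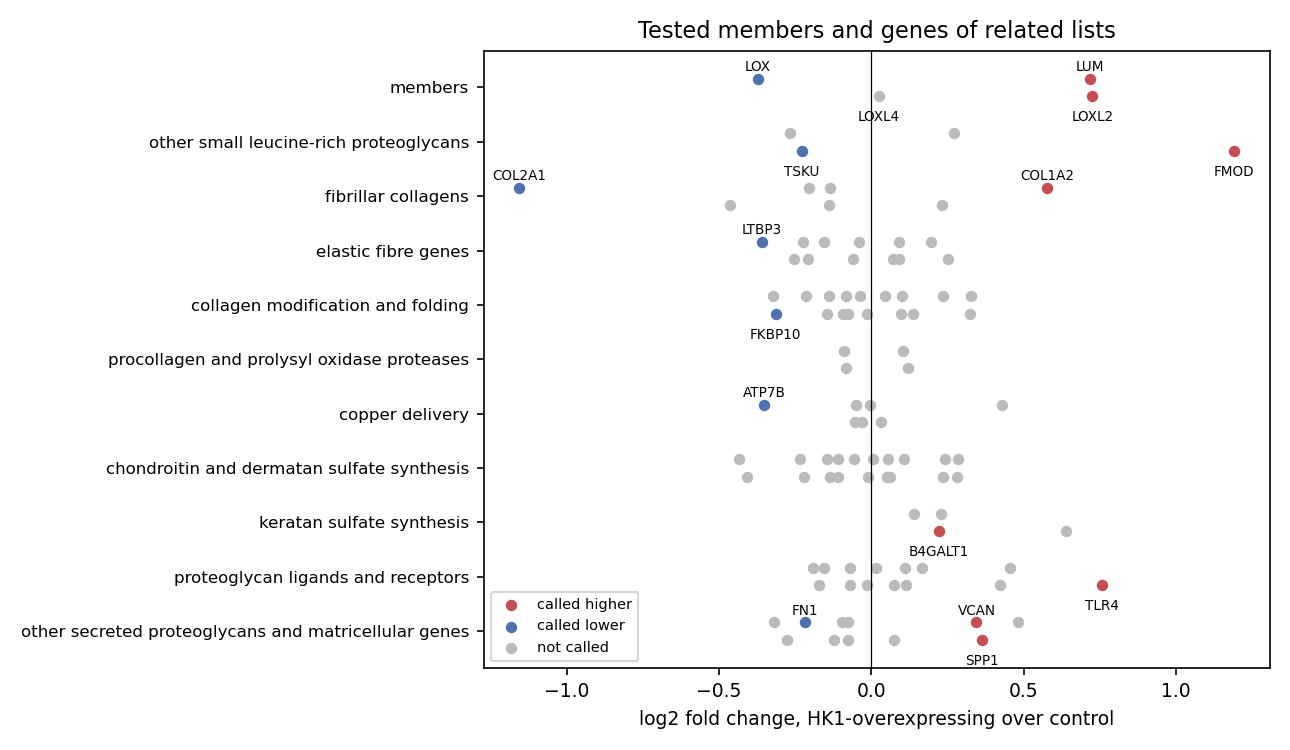
Log2 fold change, HK1-overexpressing over control, of every tested gene of the described families and 10 related lists, 1 row per list, with called genes in red (higher) or blue (lower) and uncalled genes in grey. LUM and LOXL2 at 0.72 and 0.73 lie beside COL1A2 and TLR4 on the higher side, FMOD and COL2A1 are the farthest points, and most list genes lie near 0.

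The log2 fold changes of the 4 tested genes were recomputed under 15 other settings, as a description of how far the values move. LUM ranged from 0.68 to 0.76, LOXL2 from 0.69 to 0.76, LOX from -0.42 to -0.33 and LOXL4 from -0.00036 to 0.06.

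**Figure D4:**
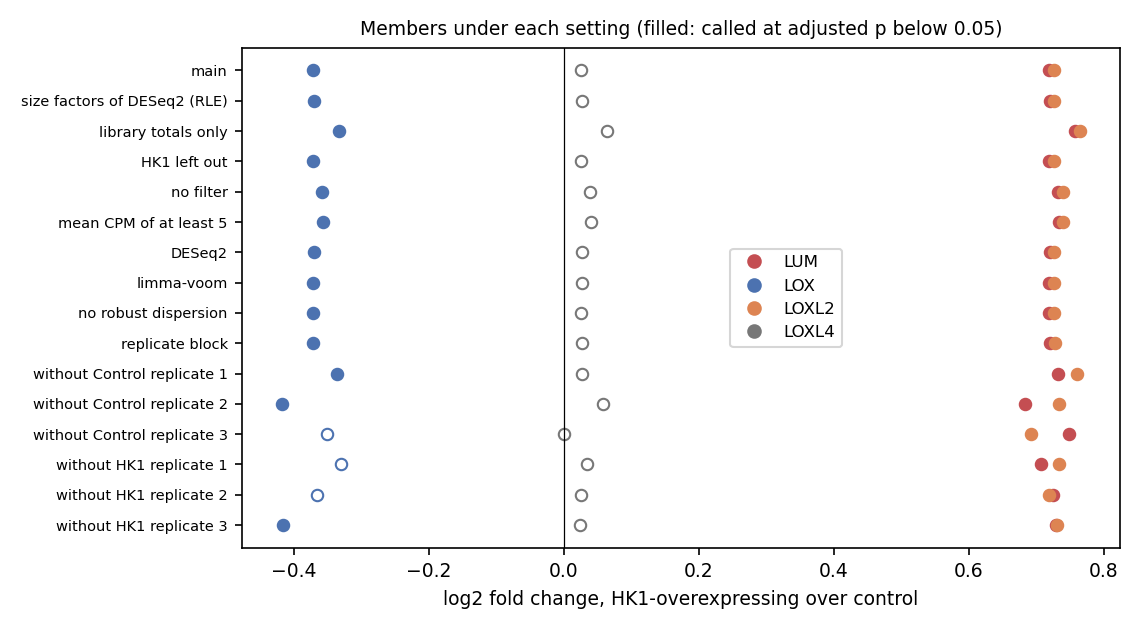
Log2 fold change, HK1-overexpressing over control, of LUM, LOX, LOXL2 and LOXL4 under the reported fit and 15 alternatives, filled where called at adjusted p below 0.05, which describes genes chosen on this contrast. LUM and LOXL2 stay between 0.68 and 0.76, LOX between -0.42 and -0.33, and LOXL4 near 0.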

How the data were processed

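RNA from 3 control and 3 HK1-overexpressing Huh7 samples was extracted with TRIZOL and made into stranded mRNA libraries, per the labels' protocols. The authors deposited whole-number counts, summed over the exons of each gene name in GENCODE release 47 by featureCounts 1.5.3 run on read pairs, per the file headers. Trim Galore, Subread and hg38 are named per the submitters' processing notes. The recorded command sets no strand, multi-mapping or multi-overlap option, so antisense or overlapping genes cannot be told apart by strand, and fragments in shared exons may be missing.

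Counts were scaled by TMM and filtered by filterByExpr, leaving 16734 genes, and tested with edgeR 4.0.16 (R 4.3.3; robust quasi-likelihood, group only, Benjamini-Hochberg at 0.05), which was tested on simulated data. SE is the unshrunken coefficient over the root of F. Members, lists and tests were chosen with earlier results of these data known. Of each list, called genes (up to 4), or the 2 most abundant if fewer than 2 were called, were eligible to be named. COL1A1, COL3A1, COL5A2 and the list genes below the filter are named outside that rule. The fit was repeated with DESeq2's size factors, with library totals only, without HK1, with other filters, with DESeq2 1.42.0, with limma-voom (limma 3.58.1), without robust dispersion, with a replicate block and without each library in turn. Same-numbered libraries were checked for pairing by correlation, which cannot exclude that they were handled together, and the reported fit used no pairing.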

Additional observations from a re-analysis of the deposited data

How the results depend on the processing

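Across all genes 1342 were called, between 1064 and 1617 with the other scalings, filters and tools, and between 536 and 2257 when 1 library was left out. The lowest counts came without an HK1-overexpressing library (554, 536 and 598 without replicates 1, 2 and 3) or without control replicate 3 (809), and the highest without control replicate 1 (2257). Higher calls were 48.3% of all calls, and 66.3% with library totals as the only scaling. The count of members called lower ranged from 0 to 1 when 1 library was left out, which only describes genes chosen on this contrast. Pathway list members called were 12, 20 with no filter, and 6 to 24 when 1 library was left out. The LOXL4 log2 fold change ranged from -0.00036 (without control replicate 3) to 0.0578 when 1 library was left out. That of CCS, a copper chaperone at -0.0045, was 0.0346 with library totals only, 0.0093 with no filter, 0.0093 with a mean CPM of at least 5, 0.0055 with limma-voom and 0.0011 with a replicate block. With 1 library left out, CCS ranged from -0.0999 to 0.0867. The cause of these changes was not tested. The labels share replicate numbers and state no pairing. Deviations of same-numbered libraries correlated at -0.0304 to 0.0579 and those of other pairs at -0.0515 to 0.0496, and not every library correlated best with its own number. These values cannot exclude that same-numbered libraries were handled together. The fit with a replicate block called 1074 genes, 2 members higher and 1 lower. Depth limits LOXL1, LOXL3, DCN, BGN and PRELP, for which no difference was detectable.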
